A study of Danio rerio with 96 samples.

Results

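The comparison set 24 libraries from betamethasone-treated wild-type zebrafish larvae against 24 from control wild-type larvae, chosen by their titles. In this way 48 of the 96 libraries of the series entered it. Each library came from dissected larval head tissue at 5 days post-fertilisation and was counted as 1 larva. All 48 larvae were labelled wild-type for the glucocorticoid receptor (GR). The controls were kept in 0.2% ethanol, and the treated larvae received 100 µM betamethasone. The other 48 libraries held larvae labelled GR mutant under the same 2 treatments and are used below only to set the wild-type differences in context. The labels do not give the mutant allele, the hours of exposure, the clutch or the plate. An ethanol content is not recorded for the betamethasone larvae.

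Betamethasone is a synthetic glucocorticoid that binds GR, a nuclear receptor that in the absence of hormone sits mostly in the cytoplasm and on binding moves to the nucleus and regulates genes. In zebrafish the natural ligand is cortisol. Methylation of cytosine in CpG pairs is a chemical mark on DNA that can be copied through cell division, and loss of methylation at GR-bound regions after glucocorticoid exposure is known from mammalian cells. Bisulfite turns unmethylated cytosine into a base that sequencing reads as T and leaves methylated cytosine as C, so the level of a CpG is the share of its reads that kept a C. A head holds many cell types, so a different mix of cells and a different level within cells cannot be told apart here.

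The data covered 50 CpGs in 8 amplicons in positions of build GRCz10, as named in the submitters' processing notes and counted from 1. On chromosome 6 lay 3 of them, called 6a, 6b and 6c here in their order along the chromosome. Amplicon 6a spanned 27961540 to 27961753 (4 CpGs), 6b 41099247 to 41099469 (4 CpGs) and 6c 49743949 to 49744115 (5 CpGs). The others were at 14499688 to 14499886 of chromosome 2 (10 CpGs), 25887983 to 25888164 of chromosome 3 (6 CpGs), 22488700 to 22488907 of chromosome 8 (3 CpGs), 4079178 to 4079402 of chromosome 15 (13 CpGs) and 8404129 to 8404240 of chromosome 16 (5 CpGs). Those on chromosomes 2 and 16 were read on the minus strand and the others on the plus strand. No gene, exon or UTR is assigned to them, since an annotation of GRCz10 was not used here.

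Some libraries stood apart or differed in depth. Betamethasone library 2 held 19 cytosine calls (reads summed over all cytosines) and gave no value, which left 23 treated larvae. The other libraries held 84593 to 2009599 calls in control and 70334 to 1970240 in betamethasone larvae. Control library 20 and betamethasone library 23 had their closest matches at 3 amplicons in another group of the series, and the values without them are given beside the results they touch. Non-CpG methylation, which includes incomplete conversion, had a median of 1.87% in control and 1.64% in betamethasone larvae, and 10 control and 2 betamethasone libraries lay above 2%. Within single amplicons the order differed. The median was 1.21% in control and 2.10% in betamethasone larvae on chromosome 8, 0.482% and 1.58% on chromosome 2, 1.10% and 1.55% on chromosome 3, 1.02% and 1.71% at 6a, 1.09% and 1.31% at 6b and 0.944% and 1.35% on chromosome 16. It was higher in controls at 6c (2.14% and 1.63%) and on chromosome 15 (2.77% and 1.74%). The part of these differences in the CpG levels was not tested beyond leaving out the libraries above 2%. That limit was set on all amplicons of a library together, so it does not follow the single amplicons. Median depth per CpG differed between the groups on chromosome 8 (180 reads in control, 1390 in betamethasone), on chromosome 3 (148 and 1109), on chromosome 16 (519 and 2233) and on chromosome 2 (1167 and 418.5). At amplicon 6c (8000 and 8015 reads) and on chromosome 15 (8015 and 8006) the medians were close. These medians lay near the highest count at any cytosine, 8088, so they do not show that depth was equal. Larvae with fewer than 30 reads at any tested CpG of an amplicon had no value there, so 15 to 24 control and 20 to 23 betamethasone larvae entered each amplicon.

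Methylation fell at 2 amplicons of chromosome 6 and rose on chromosome 8, where the call was lost under some alternatives. Of the 8 amplicons, 3 passed the beta-binomial test of mean level at an adjusted p below 0.05 (37.5%), and 4 had an unadjusted p below 0.05. Of the 50 CpGs, 11 passed (22%), 8 of them lower with betamethasone (16%) and 3 higher (6%). With means of runs of 4 neighbouring replicate numbers (6 values per group), 0 CpGs passed by an exact permutation test and 12 had an unadjusted p below 0.05, while amplicons 6b and 6c still passed. The smallest p that test allows is 0.00216 before adjustment, and the lowest adjusted p was 0.0541. The differences of the run means stayed close to those of the larvae, at -11.9 against -12.0 for 41099447 and -24.5 against -25.4 for 49743996. With libraries of matching profiles counted once, the calls at 41099291 (a difference of -3.36 in place of -5.36, adjusted p = 0.323) and 22488829 (24.0 in place of 34.6, adjusted p = 0.0618) were lost. The amplicon call on chromosome 8 was lost there too (3.73 in place of 8.59, adjusted p = 0.380 in the beta-binomial test). How far the treated larvae left the range of the controls, how far they lay from one another and whether the CpGs of an amplicon moved together differed between these amplicons.

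At amplicon 6b the difference was small, and most treated larvae shared it. The lowest, median and highest control larvae had amplicon levels of 63.7%, 68.7% and 75.0% (n = 24). The betamethasone larvae had 54.0%, 60.9% and 77.1% (n = 23). Of the treated larvae, 18 lay below every control, 4 lay inside the control range at 65.0% to 69.5%, and 1 lay above it. The mean fell by 7.07 percentage points (SE 1.14, 95% interval of the difference -9.31 to -4.83, adjusted p = 1.09e-06 in the beta-binomial test). The 18 of 23 below the lowest control make 78.3% (exact 95% binomial interval 56.3 to 92.5). Over all pairs of 1 treated and 1 control larva, the treated larva was lower in 91.8%. The 1 treated larva above the controls was library 23, which resembled GR mutant libraries. Without it and control library 20, 18 of 22 treated larvae lay below the control range and 0 above, and the mean difference was -7.60. The controls had a median of 3312 reads per CpG there and the treated larvae 7999, and at a minimum of 1000 reads the difference was -7.59.

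**Figure D1:**
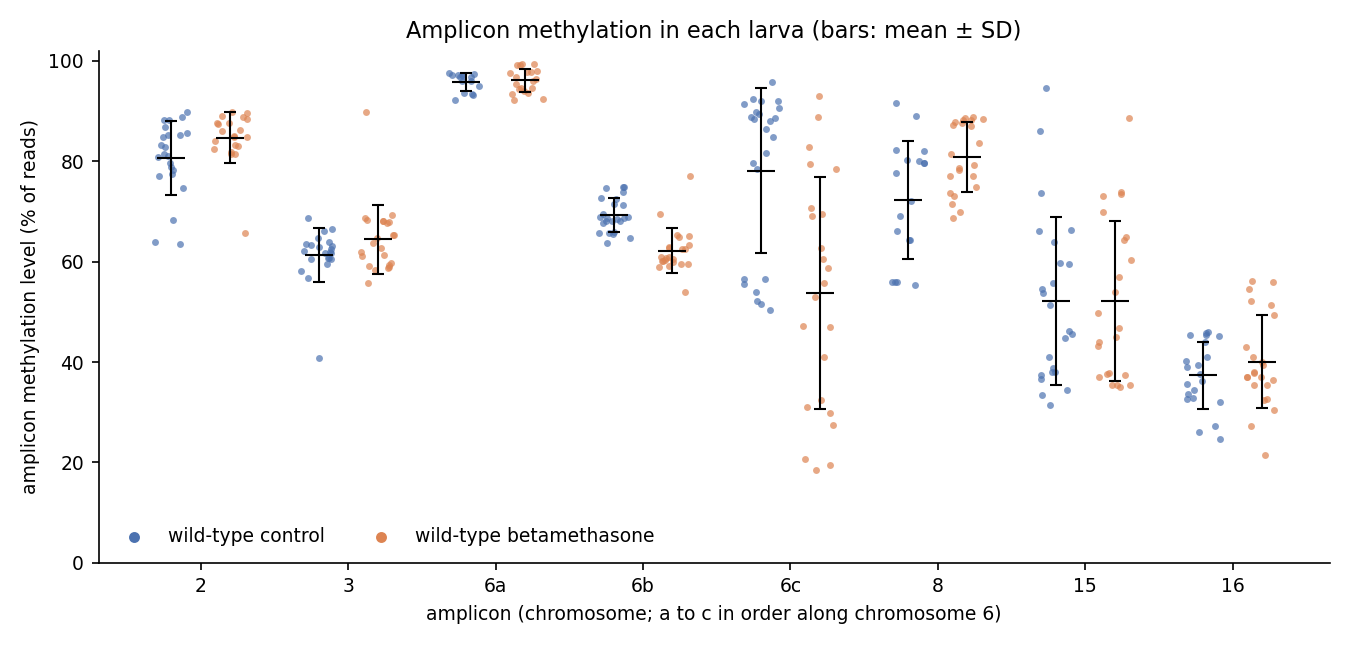
Amplicon methylation level (% of reads, y axis) of every wild-type larva with values at each of the 8 amplicons (x axis, named by chromosome; 6a, 6b and 6c lie on chromosome 6), with the mean and SD as black bars. At 6b, 18 of 23 betamethasone larvae lie below the lowest control, while at 6c the treated larvae run from 18.6% to 93.0% and overlap the controls.

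At amplicon 6c the mean difference was larger, and the larvae of both groups were scattered. Control larvae had levels of 50.3%, 87.3% and 95.9% (lowest, median and highest, n = 24), and betamethasone larvae had 18.6%, 55.8% and 93.0% (n = 23). Control libraries 1, 3, 5, 6, 10, 14 and 19 lay at 50.3% to 56.6%, and the next lowest control, library 4, at 78.4%. Of these low controls, libraries 1, 3, 5, 6 and 10 had medians of 718 to 1700 reads, and libraries 14 and 19 had 8016 and 7999. The mean fell by 24.3 percentage points (SE 5.88), with an adjusted p of 0.000529 in the beta-binomial test. At a minimum of 1000 reads the difference was -29.6. The groups overlapped over most of the control range. Below 50% there were 0 of 24 control and 10 of 23 betamethasone larvae, and 5 of these 10 were below 30%. Above 80% there were 15 of 24 control and 3 of 23 betamethasone larvae. The 10 treated larvae below every control make 43.5% (exact 95% interval 23.2 to 65.5), and without the libraries that resembled another group 9 of 22 lay there. In a pair of 1 treated and 1 control larva, the treated one was lower in 79.3% of pairs, less often than at 6b although the mean difference was larger. This difference in the shares of pairs was not tested.

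The treated larvae low at one of these amplicons were not always the ones low at the other. Of 23 treated larvae, 7 lay below the control range at both 6b and 6c, 11 only at 6b, 3 only at 6c and 2 at neither. Across treated larvae the levels of the 2 amplicons had a Pearson r of -0.0529 and a Spearman rho of 0.118 (n = 23, adjusted permutation p = 0.916 and 0.794 over 6 relations). Across control larvae r was 0.128 and rho 0.0922 (n = 24, adjusted permutation p = 0.821 and 0.794). Leaving out the 2 larvae farthest from the median at 6b gave r of -0.00416 in treated and 0.0231 in control larvae. None of the 6 relations among the amplicons at 6b, 6c and on chromosome 8 passed the adjustment. The nearest were a Pearson r of 0.476 between 6b and chromosome 8 in control larvae (rho 0.439, n = 18, adjusted permutation p = 0.144 and 0.210) and -0.471 between 6c and chromosome 8 in treated larvae (rho -0.411, n = 22, adjusted permutation p = 0.144 and 0.210). Without the 2 larvae farthest from the median they were 0.546 and -0.527.

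On chromosome 8 the treated larvae were higher and stayed within the range of the controls. Levels in control larvae were 55.4%, 74.8% and 91.5% (lowest, median and highest, n = 18), and those in betamethasone larvae were 68.7%, 80.4% and 88.8% (n = 22). The mean rose by 8.59 percentage points (SE 3.15), with an adjusted p of 0.0290 in the beta-binomial test. Here 0 of 22 treated larvae lay beyond the control range (exact 95% interval up to 15.4%, with the range taken as fixed). In the opposite direction, 7 of 18 controls lay below and 2 above the range of the treated larvae. Among those 7, control libraries 1, 13, 14 and 15 lay close together at 55.4%, 55.9%, 55.9% and 55.9%. With matching libraries counted once, 15 control and 18 treated values remained. The call was lost without control library 1, 13 or 15 (adjusted p = 0.0574, 0.0570 and 0.0572) and with libraries of matching CpG profiles counted once (3.73, adjusted p = 0.380). It was also lost with means of runs of 4 neighbouring replicate numbers (8.29, adjusted p = 0.133). At minimums of 100 and 1000 reads chromosome 8 was not among the 7 and 4 amplicons tested, so these minimums give no check of the rise. Without libraries above 2% non-CpG methylation the difference was larger, at 15.5 (adjusted p = 0.000543 in the beta-binomial test). That setting left out 10 of 24 control and 2 of 24 betamethasone libraries of the series. The part of this unequal loss of controls in the larger difference was not tested. The 2% limit was set on all amplicons of a library together. On chromosome 8 itself the non-CpG median was 1.21% in control and 2.10% in betamethasone larvae, so the setting cannot settle conversion there.

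The other 5 amplicons did not pass for mean level. On chromosome 2 the control larvae had 63.6%, 81.3% and 89.8% (n = 23) and the treated larvae 65.8%, 84.9% and 89.8% (n = 21), and 19 of 21 treated larvae lay above the control median (difference 4.09, SE 1.90, adjusted p = 0.0764). The ranges of the groups nearly coincided. The level includes position 14499697, 9 bp from the amplicon end, which was at most 0.0973% in control and 0.127% in treated larvae. The call was gained without control library 4, 6, 14 or 23, or betamethasone library 16 (adjusted p from 0.0209 to 0.0488). It was also gained with a dispersion fitted for each group (adjusted p = 0.0358) and in the quasi-binomial F test weighted by reads (6.51, adjusted p = 0.00357). On chromosome 3 the levels were 40.7%, 62.0% and 68.7% in control (n = 22) and 55.6%, 63.7% and 89.8% in betamethasone larvae (n = 23), a difference of 3.14 (SE 1.83, adjusted p = 0.124). The highest treated larva there was library 23, and without the libraries that resembled another group the difference was 1.99. Weighted by reads, the quasi-binomial F test gave 11.2 and a call there (adjusted p = 0.00137). Control libraries 1, 2 and 22 had medians of 8029.5, 8026 and 8018 reads there and the other controls at most 917. The weighted control level therefore rests mainly on those libraries, of which library 2 was the lowest control at 40.7%.

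At amplicon 6a nearly all reads were methylated in both groups, at 92.1%, 96.8% and 97.6% in control (n = 15) and 92.2%, 96.2% and 99.4% in betamethasone larvae (n = 20). The difference was 0.341 (SE 0.705, adjusted p = 0.352), and 7 of 20 treated larvae lay above the highest of 15 controls (35.0%, exact 95% interval 15.4 to 59.2). Libraries 5, 19 and 22 did so narrowly, at 97.7%, 97.8% and 97.9% against 97.6%, the last at a median of 36 reads. Libraries 13, 14, 18 and 24 lay close together at 99.2%, 99.4%, 99.3% and 99.1%. On chromosome 15 both groups spread widely, at 31.5%, 48.7% and 94.5% in control (n = 24) and 35.1%, 46.8% and 88.5% in betamethasone larvae (n = 23), a difference of 0.0110 (SE 4.78, 95% interval -9.35 to 9.38, adjusted p = 0.893). The width of that interval means that a difference as large as the one at 6b would lie within it.

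On chromosome 16, the least methylated amplicon, levels were 24.7%, 37.5% and 45.9% in control (n = 21) and 21.5%, 37.8% and 56.1% in betamethasone larvae (n = 23). The difference was 2.71 (SE 2.42, adjusted p = 0.368). Here 6 of 23 treated larvae lay above the control range and 1 below it. The 6 were betamethasone libraries 11, 12 and 18 at 49.4%, 51.3% and 52.2%, and 13, 14 and 24 at 54.5%, 56.0% and 56.1%. The level includes position 8404240, 0 bp from the amplicon end, which was at most 0.0472% in control and 0.268% in treated larvae.

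Counted over all amplicons, 45 of 178 values of treated larvae lay beyond the range of the wild-type controls (25.3%), 29 below and 16 above. Those below were 18 at 6b, 10 at 6c and 1 on chromosome 16. Those above were 7 at 6a, 6 on chromosome 16, 2 on chromosome 3 and 1 at 6b. Chromosomes 2, 8 and 15 had 0. In the opposite direction, 19 of 171 control values lay beyond the range of the treated larvae (11.1%). In GR mutant larvae, set against their own controls, 22 of 172 betamethasone values lay beyond the range (12.8%). Of these, 0 of 23 were at 6b, 7 of 23 at 6c and 9 of 23 on chromosome 2, where wild type had 0 of 21. The highest control on chromosome 2 lay at 89.8% in wild-type and 87.8% in GR mutant larvae. The mean difference there was 4.09 in wild-type and 2.41 in GR mutant larvae. These differences were not told apart by the beta-binomial test of the interaction with genotype (adjusted p = 0.681). The lowest GR mutant control at 6b was at 59.2%, against a lower quartile of 73.0%. GR mutant counts without the libraries that resembled another group were not made. A range rests on its 2 extreme larvae and on the number of controls, so these counts are descriptions. Among the 23 treated wild-type larvae, 2 were beyond the control range at 0 amplicons, 5 at 1, 8 at 2 and 8 at 3, and none at more than 3. With the range drawn from the second lowest to the second highest control, 61 of 178 values lay beyond it, and the counts at 6b were the same.

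**Figure D2:**
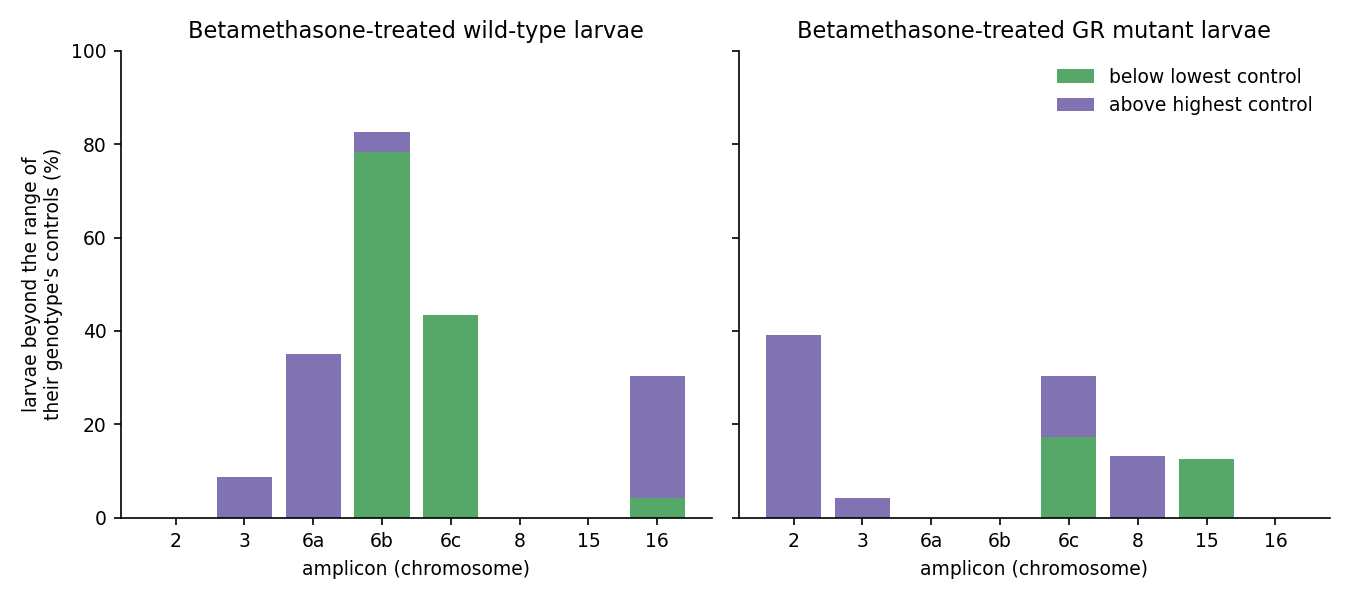
Share of betamethasone-treated larvae (%, y axis) below the lowest (green) or above the highest (purple) control of their own genotype at each amplicon (x axis, named by chromosome; 6a, 6b and 6c lie on chromosome 6), in wild-type (left) and GR mutant larvae (right). In wild type the shares below reach 78.3% at 6b and 43.5% at 6c. In GR mutant larvae 6b has none, 6c has 17.4% below and 13.0% above, and chromosome 2 has 39.1% above.

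The spread between larvae did not pass at any amplicon. It was measured as the mean distance of a larva from the median of its group, in percentage points, and tested by a two-sided permutation test with 100000 resamples. Of 8 amplicons, 0 passed (0%) and 1 had an unadjusted p below 0.05. That was chromosome 8, where the mean distance was 10.2 in control and 6.12 in betamethasone larvae (permutation p = 0.00931, adjusted p = 0.0745). The treated larvae there lay nearer to one another. At amplicon 6c the distance was 12.5 in control and 19.4 in betamethasone larvae (permutation p = 0.0776, adjusted p = 0.287), so the mean distance was higher in treated larvae and the difference did not pass. At amplicon 6b the distances were 2.57 and 2.78, and on chromosome 15 they were 13.3 and 13.3 (adjusted permutation p = 0.946 and 0.997). A call on chromosome 8 was gained without control library 3, 5, 19, 22 or 24 or betamethasone library 14, one on chromosome 3 without control library 2, and one on chromosome 2 without betamethasone library 16. With matching libraries counted once, 6c passed (a difference of 12.5, adjusted permutation p = 0.0296). Without CpGs within 30 bp of an amplicon end, chromosome 8 and 6a passed (adjusted permutation p = 0.0415 each). On chromosome 8 the difference in distance shrank from -4.04 to -1.97 without libraries above 2% non-CpG methylation and to -2.19 with matching libraries counted once (adjusted permutation p = 0.634 and 0.574). How far the unequal depth of the groups on chromosome 8 bears on the distances was not tested.

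**Figure D3:**
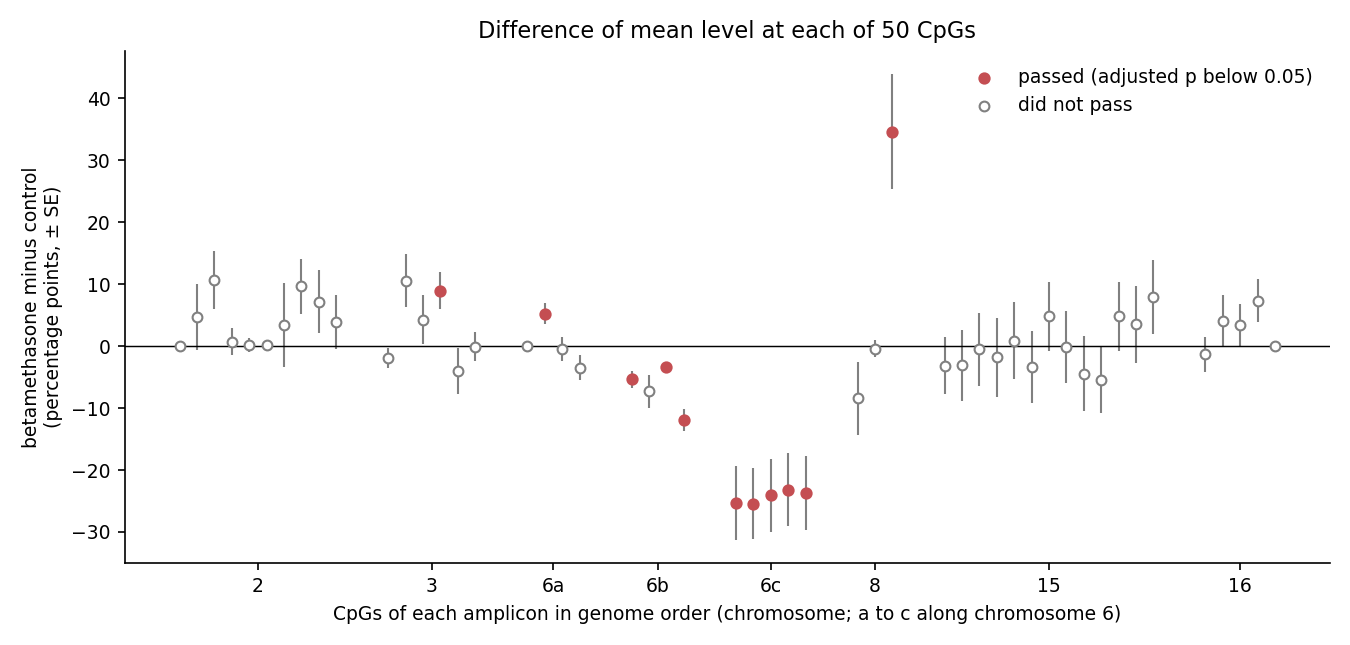
Difference of mean level between betamethasone and control wild-type larvae (percentage points, y axis, with SE) at each of the 50 CpGs in genome order within its amplicon (x axis, named by chromosome; 6a, 6b and 6c lie on chromosome 6); filled points passed the beta-binomial test. The 5 CpGs of 6c lie together between -25.4 and -23.1, those at 6b run from -12.0 to -3.43, and 1 CpG on chromosome 8 stands alone at 34.6.

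All 5 CpGs of 6c fell by similar amounts. Position 49744053 fell by 23.1 percentage points and position 49743996 fell by 25.4, and the others lay between. Within a larva these 5 CpGs had nearly 1 level. The range from the lowest to the highest CpG of a larva had a median of 4.42 percentage points in control and 3.28 in betamethasone larvae. The 5 calls there are therefore close to 1 measurement repeated.

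At amplicon 6b the CpGs fell unequally. Position 41099447 had 75.6%, 86.2% and 95.2% in control (lowest, median and highest, n = 24) and 56.9%, 72.2% and 93.2% in betamethasone larvae (n = 23). It fell by 12.0 percentage points (SE 1.81) with an adjusted p of 3.73e-06 in the beta-binomial test, and 14 of 23 treated larvae lay below every control, the largest count at any of the 50 CpGs. The CpG lies 22 bp from the end of the amplicon, and whether primer bases enter its reads was not tested. Position 41099291 had 77.7%, 85.9% and 94.9% in control and 70.4%, 79.9% and 94.1% in treated larvae, and it fell by 5.36 (SE 1.33, adjusted p = 0.00178). Position 41099420 had 88.2%, 93.3% and 95.9% in control and 78.3%, 89.8% and 94.5% in treated larvae, and it fell by 3.43 (SE 0.783, adjusted p = 0.000335). At these positions 4 and 3 of 23 treated larvae lay below the control range, so the groups overlapped more than at 41099447.

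The remaining CpG of that amplicon, 41099385, was nearly unmethylated in most treated larvae and in fewer controls. Its levels were 0.164%, 9.48% and 39.6% in control and 0.138%, 1.46% and 26.4% in treated larvae. Below 5% there were 10 of 24 control and 19 of 23 betamethasone larvae. Both groups reached down to almost 0, and the CpG did not pass (difference -7.30, SE 2.62, adjusted p = 0.201 in the beta-binomial test).

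**Figure D4:**
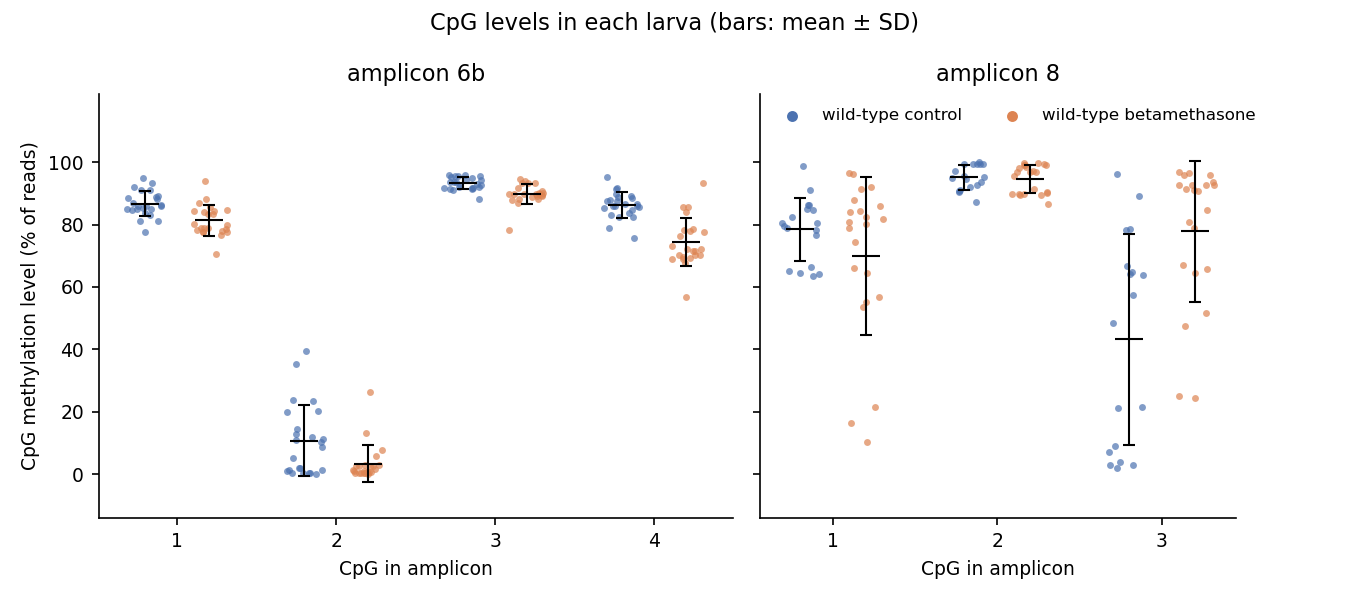
CpG methylation level (% of reads, y axis) of every wild-type larva at the 4 CpGs of amplicon 6b (left) and the 3 CpGs of the chromosome 8 amplicon (right), in genome order (x axis), with the mean and SD as black bars. The second CpG of 6b lies far below its neighbours, and at the third CpG on chromosome 8, 6 control larvae and 0 betamethasone larvae lie below 10%. Among these 6, control libraries 1, 13, 14 and 15 lie close together.

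On chromosome 8, the amplicon level came from 3 CpGs that behaved differently. Position 22488829 had 2.02%, 53.0% and 96.1% in control (n = 18) and 24.4%, 90.9% and 97.0% in betamethasone larvae (n = 22). It rose by 34.6 percentage points (SE 9.31, adjusted p = 0.00178), the largest difference of all CpGs. With the libraries above 2% non-CpG methylation left out it was 53.3 (adjusted p = 0.000166), and it was 24.0 with matching libraries counted once, where it did not pass. The 2% limit was set on all amplicons of a library together, so the first of these values cannot settle conversion on chromosome 8. Control larvae covered nearly the whole scale, with 6 of 18 below 10% and 2 above 80%, whereas 0 of 22 treated larvae lay below 10% and 14 above 80%. Control libraries 1, 13, 14 and 15 lay close together there, at 2.92%, 2.02%, 3.93% and 2.97%. They are counted among the 6 as separate larvae. Position 22488753 had 63.4%, 79.9% and 98.9% in control and 10.2%, 80.5% and 96.4% in treated larvae, and 6 of 22 treated larvae lay below every control (difference -8.41, SE 5.90, adjusted p = 0.618). Its medians were alike, and its low treated larvae had no counterpart among the controls. The 6 were betamethasone libraries 11, 12 and 18 at 56.9%, 55.3% and 53.5%, and 13, 14 and 24 at 16.5%, 10.2% and 21.5%. The same 6 libraries lay above the control range on chromosome 16. They are counted as separate larvae at both amplicons. Position 22488781 between them was high in every larva, at 87.1%, 95.04% and 100% in control and 86.7%, 96.9% and 99.8% in treated larvae (difference -0.378, SE 1.32, adjusted p = 0.838).

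The shape of the CpG profile was compared after the mean of each larva over the CpGs of an amplicon was subtracted, so that a shift common to all CpGs drops out. On chromosomes 2 and 16 a nearly unmethylated CpG enters that mean, so a shift of the other CpGs does not fully drop out there. At 6b, position 41099385 was below 5% in 19 of 23 treated and 10 of 24 control larvae, so the same limit holds there in part. The difference in shape was the root mean square (RMS) over CpGs of the difference between the group means, tested by permutation. Of 8 amplicons, 5 passed (62.5%), and the same number had an unadjusted p below 0.05. The largest was on chromosome 8, with an RMS of 18.7 percentage points (adjusted permutation p = 0.00736). Chromosome 3 had 5.39 (adjusted permutation p = 0.0210), 6b 3.17 (0.0134), 6a 3.12 (0.0210) and 6c 0.883 (0.0107). The amplicons on chromosomes 2, 15 and 16 did not pass, at RMS values of 3.79, 3.98 and 3.08 (adjusted permutation p = 0.364, 0.188 and 0.103). At amplicon 6a and on chromosome 3 the shape passed where the mean level did not.

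**Figure D5:**
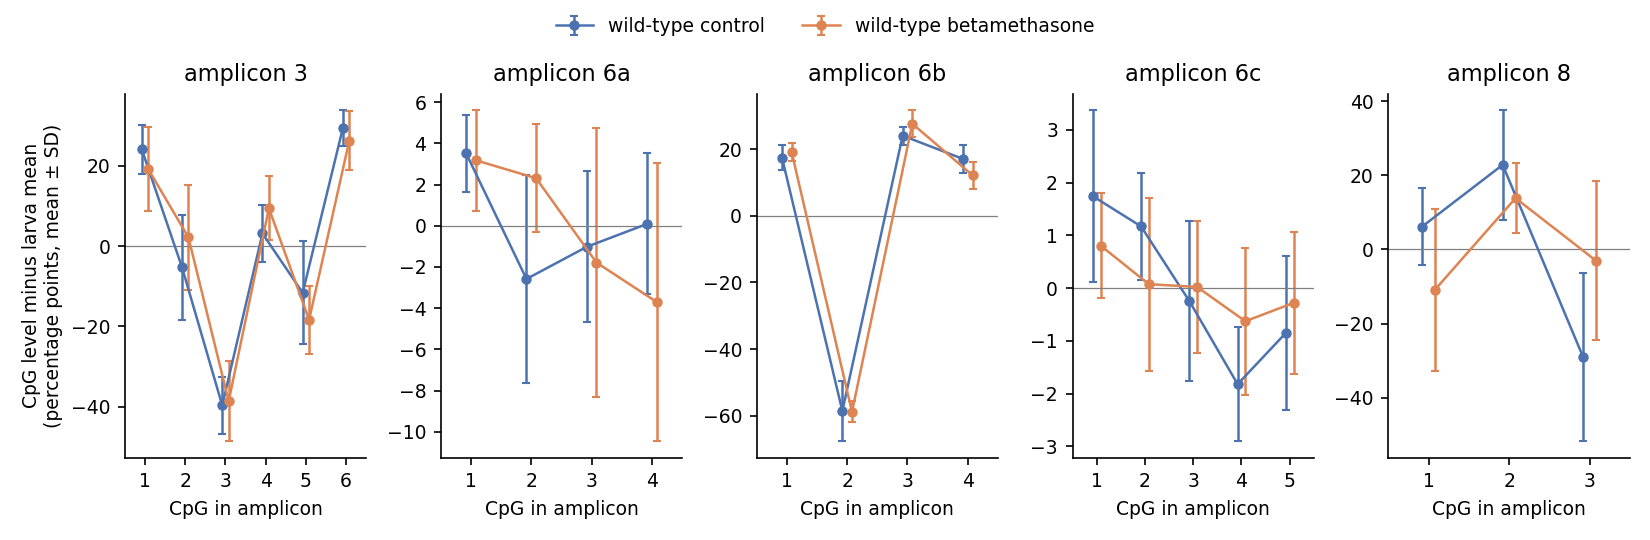
Mean CpG level after subtraction of the mean of each larva (percentage points, y axis, with SD between larvae) for the CpGs in genome order (x axis) of the 5 amplicons whose profile passed, named by chromosome (6a, 6b and 6c lie on chromosome 6), in control (blue) and betamethasone larvae (orange); each panel has its own y scale. On chromosome 8 the first CpG goes from 6.20 to -10.8 and the third from -29.0 to -3.03, while at 6c all means lie between -1.82 and 1.74.

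Single CpGs were placed in these profiles by the same test on the centred level, in which 9 of 50 passed (18%), 3 lower and 6 higher relative to their amplicon, with 16 at an unadjusted p below 0.05. On chromosome 8, 22488829 rose by 26.0 and 22488753 fell by 17.0 percentage points relative to the mean of the larva (adjusted permutation p = 0.00970 and 0.0253). With 3 CpGs in the mean, the rise of 22488829 itself lowers the centred level of the others. The plain difference at 22488753 was -8.41 and did not pass. At 22488781 the plain difference was -0.378 and the centred one -8.99 (adjusted permutation p = 0.102). At amplicon 6b, 41099447 fell by 4.94 and 41099420 rose by 3.58 (adjusted permutation p = 0.00525 and 0.00970), although the plain level of both had fallen. At amplicon 6c position 49743996 fell by 1.10 and 49744053 rose by 1.19 on the same scale (adjusted permutation p = 0.0421 and 0.0158), beside a mean level that fell by 24.3.

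The other centred CpGs that passed lay on amplicons whose mean level had not. Position 27961568 at 6a had 74.0%, 93.02% and 100% in control (n = 15) and 91.5%, 99.4% and 100% in betamethasone larvae (n = 20), and 19 of 20 treated larvae lay above the control median. Its plain level rose by 5.24 (SE 1.67, adjusted p = 0.000531 in the beta-binomial test) and its centred level by 4.89 (adjusted permutation p = 0.00500). It lies 28 bp from the amplicon end. Position 25888054 on chromosome 3 had 44.3%, 68.1% and 81.6% in control and 51.5%, 75.7% and 89.2% in treated larvae (n = 23 each), with 6 of 23 treated larvae above every control. Its plain level rose by 8.95 (SE 2.99, adjusted p = 0.0101) and its centred level by 6.28 (adjusted permutation p = 0.0421). Weighted by reads, the plain difference was 23.6 in the quasi-binomial F test (adjusted p = 6.49e-05). As for the amplicon, that weighting rests mainly on control libraries 1, 2 and 22. Position 4079376 on chromosome 15, 26 bp from the end, had 26.2%, 40.9% and 94.6% in control (n = 24) and 31.7%, 44.0% and 92.0% in treated larvae (n = 23). Its centred level rose by 7.91 (adjusted permutation p = 0.00970), while its plain level did not pass (difference 7.92, SE 5.95, adjusted p = 0.514), and the groups overlapped over nearly their whole range.

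Several profile calls depended on which libraries and CpGs were used. With libraries of matching profiles counted once, 0 of 8 profiles passed by the permutation test and 3 had an unadjusted p below 0.05, while the RMS values ranged from 0.884 at 6c to 15.5 on chromosome 8. Without CpGs within 30 bp of an amplicon end, the calls at 6b (RMS 1.58, adjusted permutation p = 0.461), 6a (1.52, 0.461) and on chromosome 3 (5.40, 0.0536) were lost. The profile call on chromosome 3 was also lost without control library 1 (adjusted permutation p = 0.0593), and that at 6a without control library 7 (0.0919), while chromosome 16 gained one without betamethasone library 7 (0.0353). At amplicon 6c the call was lost without libraries above 2% non-CpG methylation (RMS 0.704, adjusted permutation p = 0.0811). With levels on the logit scale, the calls at 6b and on chromosome 3 were lost (adjusted permutation p = 0.199 and 0.0675).

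Counted over single CpGs, 173 of 1115 values of treated larvae lay beyond the control range (15.5%), 124 below and 49 above, and the median CpG had 9.52% of treated larvae beyond it. At 11 of 50 CpGs no treated larva was beyond the range. The most were at 41099447 (60.9%) and 49743996 (47.8%). The CpGs of an amplicon came from the same larvae, so the pooled values are not independent. At every CpG of 6c, 9 to 11 treated larvae lay below the control range. Within a larva those CpGs had nearly the same level, so the 124 values below count the low larvae of 6c repeatedly. Control values beyond the range of the treated larvae were not counted for single CpGs.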

How the data were processed

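Per the labels' protocols, 100 pg of bisulfite-converted DNA per head was amplified over 40 cycles, pooled, barcoded and read as 150 bp pairs. FastQC, cutadapt and BS-Seeker2 with build GRCz10 are named in the submitters' processing notes, with settings and versions not given in the sources used here. For each library the authors deposited a methylation level as a fraction, a count of methylated reads and a count of all reads for each cytosine; the counts were used, and 0 fractions disagreed with them beyond rounding. The highest count was 8088, so deep amplicons end near 1 value.

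Amplicons were runs of cytosines with at least 30 reads in at least 48 libraries, with gaps of at most 100 bp; 1 region without a CpG was left out. CpGs were tested if 10 or more larvae in each of the 4 groups had 30 reads. Levels were tested by beta-binomial regression (likelihood ratio, two-sided), spread and profile by permutation with 100000 resamples, with Benjamini-Hochberg adjustment over all CpGs or amplicons and a threshold of 0.05. Differences are of unweighted group means. The interaction with genotype used the same model for level and permuted residuals for spread and profile. All amplicons are named, and a CpG is named if its level or centred level passed or if it was among the 3 with the most larvae beyond the control range. Positions 41099385, 22488781, 14499697 and 8404240 were added after their values were seen, as were the limits in counts of larvae below or above a level. Amplicons, measures and alternatives were chosen with earlier results of these data known. Scripts used scipy 1.17.1 for the fits, numpy 2.4.6, matplotlib 3.10.9 for plots and pandas 2.3.3 under Python 3.11.15, and were tested on simulated data.

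No label says that libraries came from separate clutches, so p-values refer only to the spread of these libraries, which may be technical in part. Libraries of 1 group were taken as matching at an amplicon at a mean chi-square per CpG under 4, with 500 or more reads. That limit allows more difference than sampling noise alone gives. They matched in 49 of 848 control and 49 of 1125 betamethasone comparisons, and among neighbouring replicate numbers in 12 of 75 (16.0%) and 12 of 102 (11.8%). Some of the same libraries lay close together at several amplicons. Control libraries 1, 13, 14 and 15 had 96.9%, 96.9%, 97.1% and 96.8% at 6a and 45.8%, 45.1%, 45.9% and 45.3% on chromosome 16. Betamethasone libraries 13, 14 and 24 had 99.2%, 99.4% and 99.1% at 6a and 62.5%, 62.7% and 62.6% at 6b. They lay apart at 6c, at 60.6%, 69.0% and 82.8%. Each library was nevertheless counted as 1 larva, with the merged count as an alternative. Merging left 18 of 24 control and 14 of 23 betamethasone values at 6b, and 13 of 24 and 20 of 23 at 6c. Over all amplicons 33 of 140 treated values then lay beyond the control range, against 45 of 178 without merging. Without molecular identifiers, reads are PCR copies, and depth covers counting error only. Binomial intervals are exact at 95% and take the control range as fixed, so the sampling of the controls does not enter them. They treat larvae as independent, which matching libraries may not be.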

Additional observations from a re-analysis of the deposited data

Results flagged for a closer look

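Each value here is flagged because the betamethasone difference of wild-type larvae and that of GR mutant larvae, set against their own controls, differed by a test of the difference itself, adjusted over 8 amplicons. For level, 3 of 8 amplicons passed by the beta-binomial test (adjusted p = 0.0205 each). At amplicon 6b the difference was -7.07 percentage points in wild-type and -1.27 in GR mutant larvae, so that the mutant difference lay 5.80 higher. The control means at 6b were 69.3% in wild-type and 75.1% in GR mutant larvae, and the treated means were 62.2% and 73.8%. At amplicon 6c the difference was -24.3 and 5.94, apart by 30.3. The 2 control groups themselves lay apart at 6c as well, with means of 78.1% in wild-type and 45.9% in GR mutant larvae. The treated means there were 53.8% and 51.8%. On chromosome 3 the difference was 3.14 and -6.02, apart by -9.16. There too the 2 control groups lay apart, with means of 61.4% in wild-type and 71.6% in GR mutant larvae, while the treated means were 64.5% and 65.6%. For spread, 1 of 8 passed by permutation, on chromosome 3, where betamethasone minus control in the mean distance from the group median was 1.69 in wild-type and -6.28 in GR mutant larvae, apart by -7.97 (adjusted permutation p = 0.00520). The distance itself was 2.92 in wild-type and 9.24 in GR mutant controls, and 4.62 and 2.97 in the treated larvae.

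Among the GR mutant libraries, control library 23 had its closest match in wild-type betamethasone larvae at 5 amplicons and betamethasone library 19 in wild-type control larvae at 3. Without these and the 2 wild-type libraries that resembled another group, the same 3 level differences passed in the beta-binomial test, at 5.71 for 6b (adjusted p = 0.0273), 27.9 for 6c (0.0427) and -8.38 for chromosome 3 (0.0273). On chromosome 3 the wild-type part of the difference was then 1.99 for level and 0.713 for spread, neither of which passed on its own, and the spread interaction was -7.03 (adjusted permutation p = 0.00936). The same 5 profile interactions passed by permutation without these libraries (adjusted p from 0.00616 to 0.0238).

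For the CpG profile, 5 of 8 passed by permutation, and the size of the difference between the 2 profile changes is given as an RMS in percentage points. It was 7.61 on chromosome 3 (adjusted permutation p = 0.0142), 4.82 at 6a (0.00432) and 1.15 at 6c (0.0129). It was 9.15 on chromosome 15 (adjusted permutation p = 0.00915) and 7.55 on chromosome 16 (0.00628), where the wild-type profile change itself had not passed. At amplicon 6b the profile change was 3.17 in wild-type and 0.426 in GR mutant larvae, and the test of their difference did not pass (2.75, adjusted permutation p = 0.235). On chromosome 8 neither the level nor the spread nor the profile passed (adjusted p = 0.587 by the beta-binomial test, adjusted permutation p = 0.858 and 0.0580). On chromosome 3 the median reads per CpG were 148 in controls and 1109 in treated larvae of the wild type, and 4475 and 136 in those of the GR mutant. The part of depth in the chromosome 3 values was not tested.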

How the results depend on the processing

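The falls at 6b (-7.60 to -5.39) and 6c (-31.4 to -23.3) passed under all 12 alternatives tried and with each of 47 libraries left out. The count of CpGs past the threshold was 20 by the quasi-binomial F test and 0 with exact permutation of run means (12 with an unadjusted p below 0.05), and that of amplicons was 5 by the quasi-binomial test. Leaving out each library in turn gave 11 to 12 CpGs, 2 to 4 amplicons, 0 to 1 spreads and 4 to 6 profiles. Profile calls numbered 2 of 4 at a minimum of 1000 reads, 0 with matching libraries counted once, 2 without CpGs near amplicon ends and 3 on the logit scale. Spread calls numbered 1 with matching libraries counted once and 2 without CpGs near ends. Signs reversed only for differences that passed under no alternative tried. The level at 6a was -0.0631 at a minimum of 100 reads, -1.92 without CpGs near ends and -0.665 by the quasi-binomial test, and that on chromosome 16 was -0.0397 at 1000 reads. The chromosome 15 level was -1.19 without libraries above 2% non-CpG methylation, -0.649 without CpGs near ends, -2.86 by the quasi-binomial test and -0.0287 with run means. The spread difference at 6b was -0.542 at 1000 reads, -1.13 without CpGs near ends, -0.336 without the libraries resembling another group and -0.000232 on the logit scale. On chromosome 15 it was 1.21 at 1000 reads, 1.41 without libraries above 2% non-CpG methylation and 0.283 with matching libraries counted once and without the libraries resembling another group. The cause of each change was not tested. No label states a pairing behind the shared replicate numbers. Of 23 pairs with the same number, 12 had a correlation of deviations above 0.1 and 7 below -0.1, and a pairing was not tested. With the replicate block, 13 CpGs, 3 amplicons, 0 spreads and 5 profiles passed, and the chromosome 15 level was -0.568. The alternative without libraries resembling another group was added after seeing the data, for the interaction with genotype too, as was leaving out single libraries for CpGs and profiles.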
